A study of Rattus norvegicus with 10 samples.

Results

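The endothelial miRNA miR-126 and the neighbours miR-221 and miR-222 were followed in rat heart muscle. The members were the 7 miRNAs on the array whose names are rno-miR-126a-3p, rno-miR-126a-5p, rno-miR-126b, rno-miR-221-3p, rno-miR-221-5p, rno-miR-222-3p and rno-miR-222-5p, out of 761 rat miRNAs. They were chosen by name. Male Wistar rats of 250 to 350 g received saline (Control group, n = 5) or dexmedetomidine, an alpha2 adrenergic receptor agonist used for sedation (DEX group, n = 5), as an infusion of 30 min. No genetic change is given for either group. Per the study's methods, the hearts were not made ischemic before sampling, the infusion ended with a short washout with saline, and the anterior wall of the left ventricle of each rat was taken. Each array held the RNA of 1 rat, labelled with Cy5, with 1 spot per miRNA. The comparison asked whether the members differed in abundance after the infusion.

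MicroRNAs are short RNAs that guide Argonaute proteins to messenger RNAs and lower their translation or stability. Pairing is led by the seed, bases 2 to 8 from the 5′ end. Each hairpin precursor can give a mature miRNA from its 5′ arm (5p) and from its 3′ arm (3p), and one arm is often kept while the other is degraded. MiR-126 is made mainly in endothelial cells from an intron of Egfl7, a gene for a protein that endothelial cells secrete. Its 3p arm is known to lower Spred1 and Pik3r2, inhibitors of signalling by vascular endothelial growth factor, and to lower Vcam1, an adhesion molecule for leukocytes. MiR-221 and miR-222 are made from neighbouring hairpins, are found in endothelium, smooth muscle and other cells, and are known to lower Kit, the receptor of stem cell factor, and the cell cycle inhibitor Cdkn1b.

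The mature sequences are shown because they show which members share a seed and which lie antisense to each other. All 7 were found by name among 693 mature miRNAs of RefSeq (build GRCr8). Capitals mark the seed, and each sequence is written 5′ to 3′.
rno-miR-126a-3p (MIMAT0000832): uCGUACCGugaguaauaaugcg
rno-miR-126a-5p (MIMAT0000831): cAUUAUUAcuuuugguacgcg
rno-miR-126b (MIMAT0017843): uACCAAAAguaauaaugugcug
rno-miR-221-3p (MIMAT0000890): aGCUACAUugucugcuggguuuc
rno-miR-222-3p (MIMAT0000891): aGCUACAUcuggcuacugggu
rno-miR-221-5p (MIMAT0017163): aCCUGGCAuacaauguagauuuc
rno-miR-222-5p (MIMAT0017164): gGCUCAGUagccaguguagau

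Rno-miR-221-3p and rno-miR-222-3p had the same seed, GCUACAU, and no other mature miRNA of the table had it. Their first 8 bases were identical, and without gaps 11 of 21 positions held the same base, so the 3′ parts differed. The 5p arms of the pair did not share a seed and matched at 5 of 21 positions. The seeds of rno-miR-126a-3p, rno-miR-126a-5p and rno-miR-126b each occurred once in the table.

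Rno-miR-126a-5p lies at chr3:29813182-29813202 and rno-miR-126a-3p at chr3:29813219-29813240, both on the plus strand and inside Egfl7 (chr3:29802481-29814966, plus strand). Rno-miR-126b lies at chr3:29813177-29813198 on the minus strand. It is thus antisense to rno-miR-126a-5p over 17 bases, which read cauuauuacuuuuggua in rno-miR-126a-5p and uaccaaaaguaauaaug in rno-miR-126b. RefSeq gives the gene of the plus strand hairpin the symbol Mir126b and that of the minus strand hairpin the symbol Mir126a, the other way round from the miRNA names, and the names on the array are used here. The minus strand hairpin (chr3:29813150-29813267) is shown with rno-miR-126b in capitals.
Mir126a, minus strand: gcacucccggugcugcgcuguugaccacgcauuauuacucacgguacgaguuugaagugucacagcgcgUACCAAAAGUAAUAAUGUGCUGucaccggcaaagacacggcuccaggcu

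The hairpins of miR-222 (chrX:6022621-6022723) and miR-221 (chrX:6023182-6023290) lie on the plus strand with 458 bases between them. They are shown with the 5p arm and the 3p arm in capitals, since only the 3p arms were measurable on every array.
Mir222: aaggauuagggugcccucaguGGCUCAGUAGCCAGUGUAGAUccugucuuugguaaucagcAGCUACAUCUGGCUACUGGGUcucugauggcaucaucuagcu
Mir221: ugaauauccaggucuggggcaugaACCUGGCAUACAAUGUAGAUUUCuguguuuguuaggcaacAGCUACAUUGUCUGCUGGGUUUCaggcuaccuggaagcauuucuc

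Values are normalized signals in arbitrary units, that is, the intensity of a spot after subtraction of the blank spots' mean, with each array scaled so that the median over its detected miRNAs was 25. A miRNA counted as detected where its spot was more than 2 SD of the blank spots above their mean. The arrays detected 483 to 533 of the 761 miRNAs. By the array names, slide 1 held 4 arrays, all Control (1 to 4), slide 2 held 4, Control 5 and DEX 1 to 3, and slide 3 held 2, DEX 4 and 5. Slide and group thus cannot be told apart except through Control 5. DEX 1 was the dimmest array (median detected signal over blank 17.3, against 35.4 to 53.5 on the others). Markers of heart muscle were as labelled: 6 of 6, among them rno-miR-1-3p (7563 ± 1645 in the Control group, SD, n = 5), rno-miR-208a-3p (172 ± 25.7) and rno-miR-499-5p (1177 ± 192), were detected on every array. Probes differ in how strongly they bind and light up, so levels are not compared between miRNAs.

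Of the 7 members, 4 were detected on every array and 3 were not. Rno-miR-126a-3p stood 1916 to 2609 blank SDs above the blank mean, rno-miR-126a-5p 186 to 296, rno-miR-221-3p 43.2 to 69.4 and rno-miR-222-3p only 2.50 to 5.86. The first 3 of these were measured far from the detection limit, while rno-miR-222-3p lay close to it on every array.

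The other members gave no level that could be compared. Rno-miR-221-5p was detected on 3 of 10 arrays, Control 1 (2.25 blank SDs), DEX 1 (2.90) and DEX 4 (2.42), and lay between -1.74 and 1.58 blank SDs on the rest. Rno-miR-126b was detected on 0 of 10 arrays and lay between -2.83 and 1.35 blank SDs. Rno-miR-222-5p was also detected on 0 of 10 arrays and lay between -3.38 and 0.83 blank SDs. For these 2 miRNAs the data give an upper bound only, the detection limit of each array, which was 3.62 to 5.07 in normalized signal. The antisense miR-126b was thus not detectable on arrays where the miR-126a-5p that overlaps it was read on every array.

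**Figure D1:**
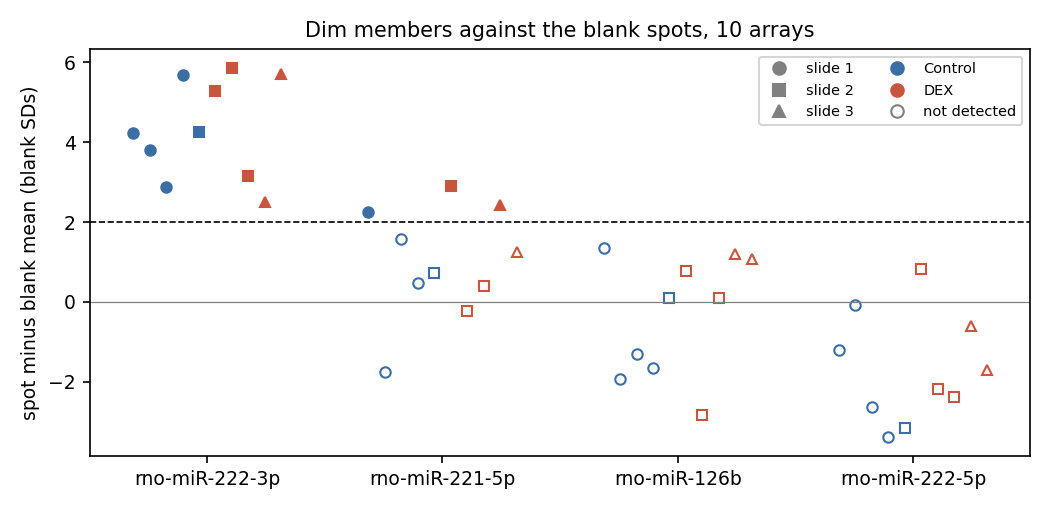
The vertical axis gives each spot minus the mean of the blank spots, in SDs of the blank spots of its array, for rno-miR-222-3p, rno-miR-221-5p, rno-miR-126b and rno-miR-222-5p on the 10 arrays. The dashed line is the limit of 2 SD. Colour gives the group, shape the slide, and open symbols are spots that were not detected. Rno-miR-222-3p was above the line on all 10 arrays, from 2.50 to 5.86, while rno-miR-126b and rno-miR-222-5p were below it on all 10.

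Rno-miR-126a-3p, the endothelial arm with the known targets named above, had normalized signals of 4883, 4699.5, 3948, 4011 and 5259 on Control 1 to Control 5. On DEX 1 to DEX 5 it had 6199, 4861, 3917, 4552 and 5526. The groups overlapped: DEX 1 and DEX 5 were above every Control array, and DEX 3 was below every Control array. The means were 4560 ± 568 in the Control group and 5011 ± 881 in the DEX group (SD, n = 5 each), 1.09-fold, a difference smaller than the spread between arrays within groups. The log2 difference was 0.13 ± 0.16 (SE), with a 95% confidence interval from -0.21 to 0.47 (limma adjusted p = 0.905).

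Rno-miR-126a-5p, the other arm of that hairpin, had 535, 513, 413, 537 and 524 on the Control arrays in order. The DEX arrays had 541, 526, 452, 425 and 599. Control 3 was the lowest array and DEX 5 the highest, and the groups overlapped. The means were 504 ± 52.1 in the Control group and 509 ± 69.8 in the DEX group (SD, n = 5 each). The log2 difference was 0.0082 ± 0.14 (SE), with a 95% confidence interval from -0.30 to 0.32 (limma adjusted p = 0.986).

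Rno-miR-221-3p had 113, 112, 89.0, 95.6 and 139.7 on Control 1 to Control 5. On DEX 1 to DEX 5 it had 137, 129, 112, 115 and 144. All 5 DEX arrays were above the Control mean, but Control 5 was above 4 of them. The means were 109.9 ± 19.7 in the Control group and 128 ± 14.01 in the DEX group (SD, n = 5 each), 1.17-fold. The log2 difference was 0.22 ± 0.15 (SE), with a 95% confidence interval from -0.11 to 0.56 (limma adjusted p = 0.905).

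Rno-miR-222-3p, which shares the seed of rno-miR-221-3p, had 8.62, 8.56, 5.95, 10.3 and 9.09 on Control 1 to Control 5. It had 13.1, 10.9, 5.95, 5.72 and 14.5 on DEX 1 to DEX 5. The DEX arrays fell on each side of the Control arrays: 3 were above the highest Control array, and DEX 3 and DEX 4 were beside the lowest. The means were 8.50 ± 1.59 in the Control group and 10.03 ± 4.04 in the DEX group (SD, n = 5 each). The log2 difference was 0.16 ± 0.27 (SE), with a 95% confidence interval from -0.44 to 0.75 (limma adjusted p = 0.914).

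**Figure D2:**
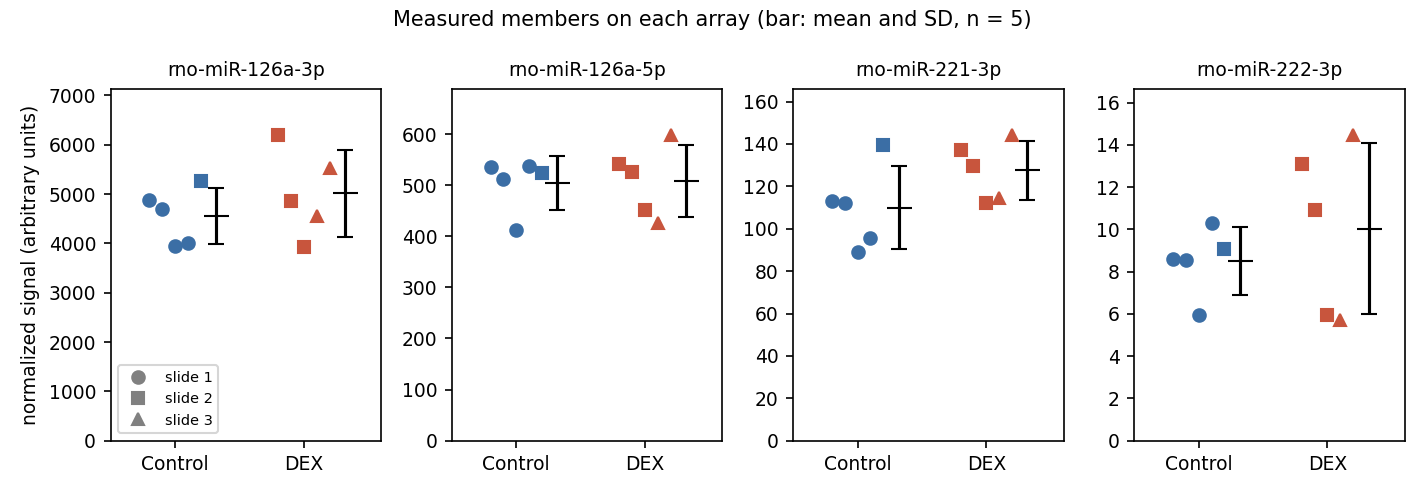
Each panel plots the normalized signal (arbitrary units, axis from 0) of 1 member on the 5 Control and the 5 DEX arrays, with the shape of the point giving the slide and the bar giving the mean and SD. The groups overlap in every panel, for example 3948 to 5259 in Control against 3917 to 6199 in DEX for rno-miR-126a-3p.

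Thus 0 of the 4 measured members passed an adjusted p under 0.05, and 0 of 4 an unadjusted p under 0.05 (the smallest was 0.167, for rno-miR-221-3p). Over all 503 tested miRNAs the share called was 0% at the adjusted threshold and 2.98% at the unadjusted threshold (1.39% with DEX higher). The arrays of the groups overlapped for 4 of 4 members, where they did not for 0.596% of all tested miRNAs (0.199% with DEX higher). The exact permutation test of the group means gave p = 0.405 for rno-miR-126a-3p, 0.929 for rno-miR-126a-5p, 0.151 for rno-miR-221-3p and 0.603 for rno-miR-222-3p (two-sided, n = 5 each), and 0.897 or more once adjusted by Benjamini-Hochberg for the 503 miRNAs. The group mean was higher in DEX for 4 of 4 members, where it was higher for 59.2% of all tested miRNAs. The direction turned for 3 of 4 members without scaling between arrays, which moved the median of all tested miRNAs from 0.044 to -0.16 on the log2 scale. It turned for 3 of 4 with slide as a fixed term, where that median was -0.19, and for both arms of miR-126a with quantile normalization. The fit with a fixed slide term compares Control 5 alone with DEX 1 to 3. The median log2 difference of the 4 members was 0.14. In a fold change, the 95% intervals ran from 0.863 to 1.38 for rno-miR-126a-3p, from 0.811 to 1.25 for rno-miR-126a-5p and from 0.928 to 1.47 for rno-miR-221-3p, all inside a 1.5-fold change in either direction. For rno-miR-222-3p the interval ran from 0.739 to 1.68 and did not exclude a change of that size. These are bulk samples, in which a change in the share of endothelial cells and a change in miRNA per cell cannot be told apart. The upper bound for rno-miR-221-3p, 0.56 on the log2 scale, passed 1.5-fold with spike control scaling (0.60). It also did without Control 1 (0.62), Control 2 (0.61), Control 5 (0.63), DEX 2 (0.595), DEX 3 (0.63), DEX 4 (0.62) or slide 3 (0.62). Without scaling between arrays and with the normexp background correction, the intervals of all 3 reached past 1.5-fold. With slide as a fixed term the intervals were wider, and each of the 4 reached past a 1.5-fold lower level in DEX.

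**Figure D3:**
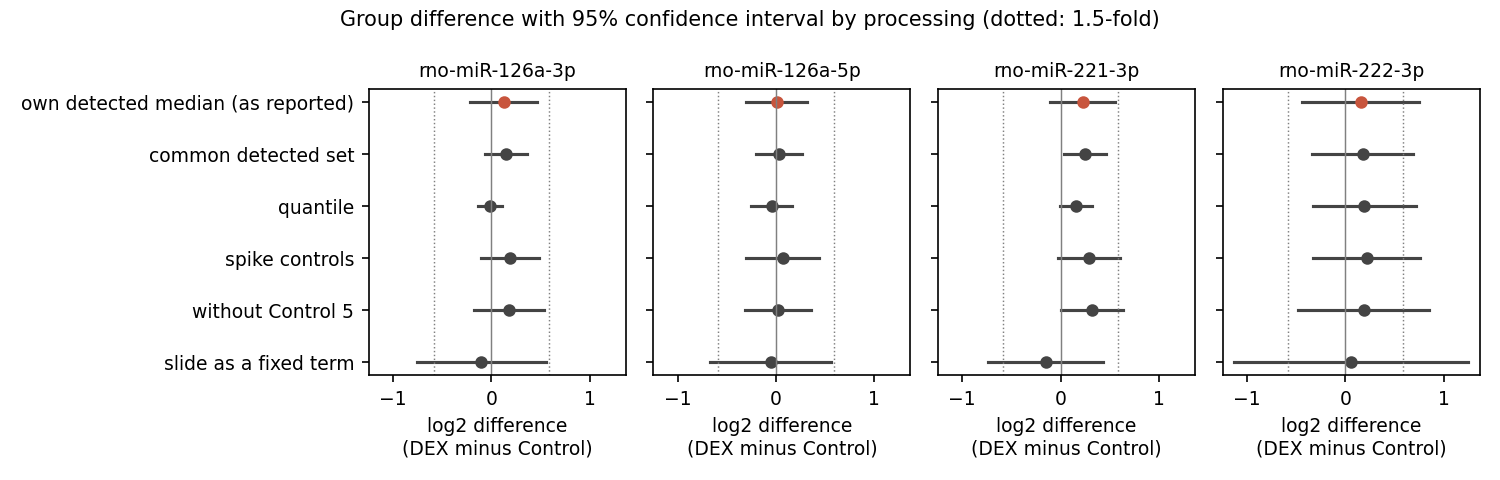
Each panel gives the log2 difference of 1 member (DEX minus Control, horizontal axis) with its 95% confidence interval under 6 ways of processing, and dotted lines mark 1.5-fold. Every interval except that of rno-miR-221-3p with the common detected set (0.035 to 0.46) or without Control 5 (0.0018 to 0.63) includes 0, and the intervals are widest with slide as a fixed term.

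Rno-miR-221-3p depended on how the arrays were scaled. The median over an array's own detected miRNAs is taken over 483 to 533 miRNAs, which differ between arrays. When the median was taken instead over the 405 miRNAs detected on every array, the scale the authors' table follows, rno-miR-221-3p had 71.8, 69.5, 62.1, 69.4 and 81.6 on Control 1 to Control 5. On that scale it had 82.7, 85.6, 82.8, 82.7 and 85.0 on DEX 1 to DEX 5. The groups then did not overlap, and the DEX arrays lay within a narrow range. The means were 70.9 ± 7.04 in the Control group and 83.8 ± 1.42 in the DEX group (SD, n = 5 each, exact permutation test, p = 0.00794, the smallest this design can give). The log2 difference was 0.25 ± 0.096 (SE), with an unadjusted limma p of 0.0260 and an adjusted p of 0.632. On this scale 1.19% of all tested miRNAs had groups that did not overlap, 0.795% with DEX higher, and 6.16% had an unadjusted p under 0.05 (3.98% with DEX higher). Rno-miR-221-3p was thus 1 of 6 miRNAs whose groups did not overlap, and 0 miRNAs passed the adjusted threshold. In the authors' table, where values are rounded, rno-miR-221-3p likewise did not overlap (62 to 82 in Control, 83 to 86 in DEX), as 0.994% of all tested miRNAs did not. There 5.96% of miRNAs had an unadjusted p under 0.05, and 3.58% with DEX higher, rno-miR-221-3p among them (limma unadjusted p 0.0249, adjusted p 0.617).

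The separation also followed the slides. On the common scale the 4 Control arrays of slide 1 had 62.1 to 71.8, while Control 5, the single Control array of slide 2, had 81.6, next to the lowest DEX array at 82.7. On the scale of each array's own median Control 5 was 0.45 above the slide 1 Control arrays on the log2 scale. The DEX arrays of slide 3 were only 0.032 above those of slide 2. Part of the 0.45 is shared by all miRNAs of the array. That scale multiplied every signal of Control 5 by 1.71 over the common scale, against 1.38 to 1.62 for Control 1 to Control 4. Within slide 2 the 3 DEX arrays were 0.036 above Control 5 on the log2 scale, and on the scale of each array's own median they were 0.15 below it. With 1 Control array against 3 the smallest possible exact p is 0.25. The model with slide as a fixed term rests on the same comparison, Control 5 against DEX 1 to 3. Its log2 difference for rno-miR-221-3p, -0.15 ± 0.26 (SE), is thus not a second observation. Without Control 5 and without a slide term the log2 difference of rno-miR-221-3p was 0.32 (limma adjusted p = 0.620). Group and slide cannot be told apart for this miRNA.

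**Figure D4:**
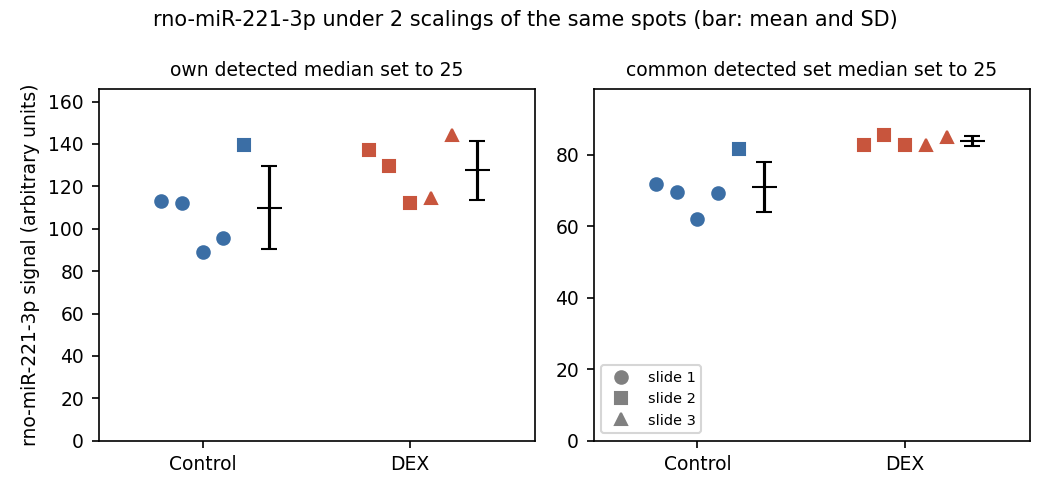
The signal of rno-miR-221-3p (arbitrary units, axis from 0) is plotted for the 10 arrays with the array's own detected median set to 25 (left) and with the median of the miRNAs detected on every array set to 25 (right), shape giving the slide and bars the mean and SD. On the right the 5 DEX arrays lie between 82.7 and 85.6, the slide 1 Control arrays between 62.1 and 71.8, and Control 5 at 81.6.

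The change of scale moved the log2 difference of every measured member by the same small amount (for rno-miR-221-3p from 0.22 to 0.25), and what changed between members was the spread. On the common scale rno-miR-126a-3p had 2950.0 ± 141 in the Control group and 3278 ± 302 in the DEX group (SD, n = 5 each), with DEX higher by 0.15 ± 0.097 on the log2 scale (SE, limma adjusted p = 0.632). Its exact permutation p went from 0.405 to 0.0635, and 4 of 5 DEX arrays were above the highest Control array. The limma unadjusted p was 0.154 there. How many of all tested miRNAs came as close to separation is not given here, so these values cannot be called unusual. Rno-miR-126a-5p had 328 ± 39.2 and 334 ± 18.3, a log2 difference of 0.029 ± 0.11. Rno-miR-222-3p had 5.54 ± 1.20 and 6.44 ± 2.04, a log2 difference of 0.18 ± 0.23. With 1 array per rat, the spread within groups holds array scaling as well as differences between rats. On the log2 scale the SD narrowed with the common scale from 0.22 to 0.11 for rno-miR-126a-3p and from 0.18 to 0.13 for rno-miR-126a-5p. It went from 0.21 to 0.10 for rno-miR-221-3p, but only from 0.50 to 0.41 for rno-miR-222-3p. With each array's own median as the scale, the SD of rno-miR-126a-5p was larger than that of 11.5% of the tested miRNAs. The SD of rno-miR-222-3p was larger than that of 84.3%.

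Partners were compared within each array, which needs no scaling between arrays. The log2 difference between rno-miR-126a-3p and rno-miR-126a-5p, the arms of 1 hairpin, was 3.17 ± 0.16 in the Control group and 3.29 ± 0.17 in the DEX group (SD, n = 5 each, exact permutation test, p = 0.286). The log2 difference between rno-miR-221-3p and rno-miR-222-3p, the neighbours of the cluster, was 3.70 ± 0.29 in the Control group and 3.77 ± 0.48 in the DEX group (SD, n = 5 each, exact permutation test, p = 0.786). The log2 difference between rno-miR-126a-3p and the mean of that pair was 7.23 ± 0.15 and 7.17 ± 0.22 (SD, n = 5 each, exact permutation test, p = 0.595). After Benjamini-Hochberg adjustment over the 3 contrasts each p was 0.786. None of the balances shifted between groups beyond the spread between arrays within groups. The sizes of these within-array values carry the different brightness of the probes and are not ratios of molecules. The 3 contrasts with a 5p arm of miR-221 or miR-222 were not computed, since those arms were not measured.

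Co-variation across the 10 arrays was described after the group means were removed. Rno-miR-126a-3p and rno-miR-221-3p, made from different loci, had Pearson r = 0.858 (permutation test, p = 0.0022) and Spearman rho = 0.927 (permutation test, p = 0.00043). The arms of miR-126a had r = 0.677 (permutation test, p = 0.0340) and rho = 0.685 (p = 0.0345, permutation test). The pair rno-miR-221-3p and rno-miR-222-3p had r = 0.638 (permutation test, p = 0.0485) and rho = 0.515 (p = 0.136, permutation test). After adjustment over these 3 relations the p-values of r were 0.0066, 0.0485 and 0.0485, and those of rho 0.00129, 0.0517 and 0.136 (permutation tests). Without the 2 arrays farthest from the median of the first miRNA, r was 0.966, 0.665 and 0.723. Slides held 4, 4 and 2 arrays, too few for values within a slide.

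The correlations were read beside those with all other miRNAs. All miRNAs of an array share its scale factor, and the median r of rno-miR-126a-3p with the 404 other miRNAs detected on every array was 0.537. Rno-miR-221-3p was 56th in that order and rno-miR-126a-5p 156th, and among the 404 partners of rno-miR-221-3p, rno-miR-222-3p was 177th. With quantile normalization the median r of rno-miR-126a-3p with the others was 0.010. The r of the arms of miR-126a was then 0.504, 36th of 404, the r of the cluster neighbours was 0.145 and that of rno-miR-126a-3p with rno-miR-221-3p was -0.137. Quantile normalization left rno-miR-126a-3p at 7699 to 8142 in each group, with an SD within groups of 0.040 on the log2 scale. With each array's own median as the scale that SD was 0.22, so each r with rno-miR-126a-3p rests on a narrow range after quantile normalization. With scaling on the spike controls the r of the arms was 0.795, 30th of 404, where the median was 0.498. That of rno-miR-126a-3p with rno-miR-221-3p was then 0.754, 48th of 404. The r of the cluster neighbours was 0.499, 241st among the partners of rno-miR-221-3p, whose median was 0.601.

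The miRNAs most like rno-miR-126a-3p across the 10 arrays were rno-miR-352 (r = 0.952), rno-miR-10a-5p (0.949) and rno-let-7a-5p (0.948). Those most like rno-miR-221-3p were rno-miR-103-3p (r = 0.991), rno-let-7b-5p (0.988) and rno-miR-30e-3p (0.986), where the median over the 404 others was 0.563. Those most like rno-miR-222-3p were rno-miR-126a-5p (r = 0.941), rno-miR-134-5p (0.891) and rno-miR-29b-3p (0.876), where the median was 0.402. With quantile normalization the 3 nearest of rno-miR-126a-3p had r of 0.371, 0.201 and 0.467, while those of rno-miR-221-3p had 0.741, 0.707 and 0.833 and those of rno-miR-222-3p had 0.685, 0.812 and 0.683. The narrow range of rno-miR-126a-3p after quantile normalization limits the reading of its r.

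A list of 25 other miRNAs described in endothelium and in the growth of vessels was set beside the members, of which 24 were tested and rno-miR-217-5p was detected on 0 of 10 arrays. At the adjusted threshold 0 of 24 were called, and at an unadjusted p under 0.05 there was 1, higher in DEX, where 2.98% of all tested miRNAs passed (1.39% with DEX higher). The median log2 difference was 0.11, against 0.044 over all tested miRNAs. A higher mean in DEX was seen for 22 of 24, a larger share than the 298 of 503 over all tested miRNAs. The same was seen for 4 of 4 smooth muscle miRNAs, 5 of 6 heart muscle markers and 4 of 4 white cell markers. Of the red cell markers 1 of 3 was higher. The share was thus not particular to vascular miRNAs. It was 24 of 24 with spike control scaling, 18 with quantile normalization and 15 with normexp, beside 335, 262 and 218 of 503. Without scaling between arrays 3 of 24 were higher, beside 74 of 503 of all tested miRNAs, and with a fixed slide term 3 of 24, beside 125 of 503. The 3 with the smallest unadjusted p were rno-miR-132-3p, rno-miR-218a-5p and rno-miR-17-5p. Rno-miR-132-3p, which is induced through the transcription factor CREB and is known in growing endothelium, had 3.64 to 5.48 on the Control arrays and 4.62 to 11.2 on the DEX arrays, which is 0.61 ± 0.24 higher in DEX on the log2 scale (SE, limma unadjusted p 0.0259, adjusted p 0.905). Only 2 of the Control arrays and 4 of the DEX arrays detected it, and the other 4 arrays took their lowest detected value. With those values left missing the log2 difference was 0.47 ± 0.33 (SE, limma unadjusted p 0.188). Rno-miR-218a-5p, which is made from introns of the guidance genes Slit2 and Slit3, had 9.99 ± 3.52 and 13.6 ± 3.46 (SD, n = 5 each), with DEX higher by 0.48 ± 0.26 on the log2 scale (SE, limma adjusted p = 0.905). Rno-miR-17-5p, of the miR-17-92 cluster, had 164 ± 20.8 and 192 ± 41.5 (SD, n = 5 each), with DEX higher by 0.22 ± 0.17 on the log2 scale (SE, limma adjusted p = 0.905).

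Markers of the other cells of the wall showed no called difference either. For smooth muscle, rno-miR-143-3p and rno-miR-145-5p and their partner arms were all detected on every array, 0 of 4 were called, and the median log2 difference was 0.14. The summed signal of rno-miR-143-3p and rno-miR-145-5p ran from 2433 to 3711 on the Control arrays and from 2654 to 3857 on the DEX arrays. The 6 heart muscle markers summed to 32202 to 46018 on the Control arrays and 31097 to 45001 on the DEX arrays, with 0 of 6 called. The mean was higher in DEX for 5 of these 6, and their median log2 difference was 0.14. Of the blood cell markers, 0 of 7 were called and all 7 were detected on every array. The 3 of red cells had log2 differences from -0.75 to 0.02 (smallest limma unadjusted p 0.0575) and summed to 564 to 1028 on the Control arrays and 349 to 1004 on the DEX arrays. The 4 of white cells had log2 differences from 0.13 to 0.34 (smallest limma unadjusted p 0.137) and summed to 690 to 889 and 804 to 1073. The smallest limma adjusted p in each of these lists was 0.905. For smooth muscle, heart muscle and blood cells the summed signals of the groups overlapped on the scale of each array's own median. The signal of each measured member overlapped there too, while that of rno-miR-221-3p did not on the common scale.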

How the data were processed

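The authors scanned each one-colour array at 635 nm and deposited the median intensity of every spot. Their deposited value table holds a normalized score per miRNA and array, rounded to whole numbers. It was rebuilt as intensity over blank with the median of the 405 miRNAs detected on every array set to 25 (99.8% of 5038 values within 0.51). Detection was taken from it. Extraction software versions were not given in the sources used here. Groups and replicate numbers came from the labels.

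The blank level (a mean without the top and bottom 5%) was subtracted, arrays were scaled on their own detected miRNAs, an undetected miRNA took its array's lowest detected value, and spots marked as bad had no value. The 503 miRNAs detected on at least 5 arrays entered limma 3.58.1 (R 4.3.3) on log2 signals, with Benjamini-Hochberg adjustment over all of them and a threshold of 0.05. The fit was tested on simulated data. Exact permutation tests of the group means on the log2 scale and permutation tests of correlations (100000 resamples) were two-sided and run in Python 3.11.15, and figures were drawn with matplotlib 3.10.9. Planned contrasts and correlations with a 5p arm of miR-221 or miR-222 were left out, since those arms were mostly undetected. The number of arrays limits the precision.

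The processing, with its main scaling, followed an earlier analysis of these data and was chosen with its results known. The members, lists and tests were also chosen with earlier results known. Named were the members, the 3 vascular or smooth muscle miRNAs with the smallest unadjusted p, the 3 most like each of rno-miR-126a-3p, rno-miR-221-3p and rno-miR-222-3p by r, and 3 heart muscle markers. Alternatives covered background, scaling, the value table, filters, the floor, the model, slide, the replicate number, the methods' t-test and left-out arrays.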

Additional observations from a re-analysis of the deposited data

Results flagged for a closer look

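Rno-miR-126a-5p on Control 3 stood apart from the other Control arrays. Its gap to the nearest Control array was 0.827 of the range of the 5 log2 values, above the critical value of 0.71. The normalized signal was 413 there and 513 to 537 on the other 4 Control arrays. With the median of the miRNAs detected on every array as the scale, the gap was 0.202 of the range. Of 14 groups of 5 values examined, 1 had such a value, where chance gives about 0.7.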

How the results depend on the processing

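No miRNA passed an adjusted p under 0.05 under any of the 28 alternatives (limma, or the methods' t-test after adjustment; smallest adjusted p 0.0608 to 0.997), and 0 of 4 measured members did. The methods' t-test at its own threshold called 8 miRNAs and 0 members. It was run on the log2 signals used here and not on the study's own values, so its count is not the study's. Values given as reported are those on the scale of each array's own median. The count at an unadjusted p, 15 as reported, ran from 7 without background subtraction to 36 without Control 5, with 31 on the common scale and 30 with the value table. The log2 difference of rno-miR-126a-3p, 0.13 as reported, turned to -0.29 with normexp on the background column, -0.078 without scaling, -0.016 with quantile normalization and -0.10 with slide as a fixed term. That of rno-miR-126a-5p, 0.0082 as reported, turned to -0.071 without background subtraction, -0.20 without scaling, -0.042 with quantile normalization, -0.053 with slide as a fixed term and -0.034 with array weights. That of rno-miR-221-3p, 0.22 as reported, turned to -0.15 with slide fixed in the model and kept its sign under the other 27. That of rno-miR-222-3p, 0.16 as reported, turned to -0.049 without scaling. Normexp changed the log2 SD within groups from 0.22 to 1.19 for rno-miR-126a-3p and from 0.18 to 0.80 for rno-miR-126a-5p. That SD went from 0.21 to 0.42 for rno-miR-221-3p and from 0.50 to 0.069 for rno-miR-222-3p. Quantile normalization narrowed that of rno-miR-126a-3p to 0.040. Leaving out 1 array gave log2 differences of 0.046 to 0.21 for rno-miR-126a-3p, -0.062 to 0.070 for rno-miR-126a-5p, 0.15 to 0.32 for rno-miR-221-3p and -0.0024 to 0.33 for rno-miR-222-3p. The lowest of the last was without DEX 5, and rno-miR-126a-5p turned without Control 3, DEX 1, DEX 2 or DEX 5. Among contrasts, rno-miR-126a-3p minus rno-miR-126a-5p turned from 0.12 to -0.84 with normexp, and rno-miR-221-3p minus rno-miR-222-3p turned from 0.069 to -0.036 with quantile normalization and ran from -0.071 to 0.18 when 1 array was left out (lowest without DEX 4). The r of the miR-126a arms had a permutation p above 0.05 without the 2 farthest arrays (0.665) and with quantile normalization (0.504). The r of rno-miR-221-3p with rno-miR-222-3p did with the group means kept (0.629), quantile normalization (0.145) and spike control scaling (0.499). The r of rno-miR-126a-3p with rno-miR-221-3p turned to -0.137 with quantile normalization, where the range of rno-miR-126a-3p was narrow. Left out 1 at a time, the arrays gave 0.051 to 0.16 for the contrast of the miR-126a arms and -0.14 to -0.00067 for rno-miR-126a-3p minus the mean of rno-miR-221-3p and rno-miR-222-3p. The cause of these changes was not tested.

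Replicate numbers did not pair the samples: deviations of same-numbered arrays correlated at -0.080 to 0.105, and 1 of 10 arrays was most like the array with its own number. With the replicate block the count at an unadjusted p was 35 against 15, and the log2 differences were unchanged at 0.13, 0.0082, 0.22 and 0.16 with adjusted p of at least 0.674. Depth limits rno-miR-222-3p most, at 2.50 to 5.86 blank SDs over blank, and for rno-miR-221-5p, rno-miR-126b and rno-miR-222-5p no difference could be measured.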

Other observations

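The spot of rno-miR-222-5p was darker than the blank spots, which carry no probe for a miRNA. It lay below the blank mean on 9 of 10 arrays, with a median of -1.94 blank SDs. Among the miRNAs detected on no array, the median of these medians was -0.45, 5 had a lower median than rno-miR-222-5p, and 30 lay below the blank mean on at least 9 arrays. Rno-miR-126b, which was also detected on no array, lay below the blank mean on 4 of 10 arrays with a median of 0.096 blank SDs.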
